A study of Drosophila melanogaster with 24 samples.

Results

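Embryos of the fruit fly Drosophila melanogaster were set against heads of adult males, with 4 samples on each side out of the 24 samples and 6 groups of the series. The 8 samples were chosen by their titles alone, and all 22575 spots of the array were compared, each read here as 1 probe. Embryos were of both sexes and came from egg-laying plates on which females had laid for 24 h, so that each sample pooled many embryonic ages. Heads came from males aged 24 to 48 h. The other groups were abdomens of males of the same age, and female, male and mixed-sex pupae held for 12 h at 25 °C after collection as white prepupae. Every group was of the isogenic line WI89, and its RNA was labelled without amplification, 2 samples with the dye Cy3 and 2 with Cy5. The series is titled as a study of alternative splicing by sex, stage and tissue. Embryos and heads differ in all of these at once, so sex, stage and tissue cannot be told apart here.

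During fly embryogenesis a fertilised egg passes through rapid nuclear divisions driven by RNA that the mother laid down, then switches on its own genes, forms the body plan and differentiates into a larva. An adult head consists mostly of brain, compound eyes, antennae and mouthparts with surrounding fat body and cuticle, in which neurons and photoreceptors no longer divide. Alternative splicing, the joining of different exons of 1 gene into different mRNAs, is known to be especially rich in the nervous system of flies. The tables used here tie no probe to a gene, so each probe is given by its number in spot order, a gene may be counted several times, and a change in splicing was not separated from a change in the amount of a transcript. For the same reason the labelled tissues could not be checked against marker genes. In such whole-animal or whole-organ samples fewer cells of a type and less RNA per cell cannot be told apart.

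Signal was much weaker in some samples than in others, which limits what can be seen at faint probes. The median spot of a sample stood 60.8 to 144 scanner units above its background in the 12 Cy3 samples and 5.19 to 61.7 units in the 12 Cy5 samples. In embryos it was 20.7, 6.77, 144 and 121 in replicates 1 to 4, of which the first pair was labelled with Cy5 and the second with Cy3. In heads it was 6.26, 60.8, 5.19 and 67.7, with Cy5 on replicates 1 and 3. A probe counted as detected when its signal was more than 2 SD above the local background, the SD being taken over all spot backgrounds in that sample. In at least 3 of 4 samples this held for 22566 probes in embryos and 19596 in heads. No probe was undetected in all 4 samples of either group. In every Cy3 sample 100% of probes passed, and in Cy5 the share was 100% and 86.3% in embryos and 74.0% and 80.1% in heads. The rule thus shows signal above a spot's surroundings and not expression, and the lower count in heads lay in the Cy5 samples. The brightest spot of the 8 samples read 30400 units. The labels do not give the array of a sample, and arrays were inferred from identical patterns of marked spots. By this reading samples lay in pairs of opposite dye on 12 arrays, 4 of them bright and 8 dim by their median signals. Embryo replicates 3 and 4 were on bright arrays, while embryo replicates 1 and 2 and all 4 head samples were on dim ones. Embryo replicate 2 and head replicate 4 shared an array and stood somewhat apart from their groups at probes higher in the other group, as described below. The labels do not say whether replicates came from separate collections of animals, and the p-values below measure the spread among these samples only, which may be technical.

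Embryos and heads differed at many probes, in nearly balanced numbers, but most of the large differences were toward heads. Of 22575 probes, 2184 (9.67%) were higher in embryos and 1860 (8.24%) were higher in heads, together 4044 or 17.9%. A probe was called when its limma p, adjusted by Benjamini and Hochberg over all probes, was under 0.05. Typical sizes were alike, with a median of 0.54 log2 units toward embryos and 0.56 toward heads. A gap of 1 unit or more was present at 400 probes toward embryos and 473 toward heads. For 2 units or more the counts were 44 and 134, in the same order, and for 3 units or more they were 3 and 41. At 4 units or more there were 0 probes toward embryos and 14 toward heads. The largest head-higher difference was 6.04 units and the largest embryo-higher one 3.31. Differences are on a log2 scale to which an offset of 50 scanner units was added, which understates the change of faint probes.

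**Figure D1:**
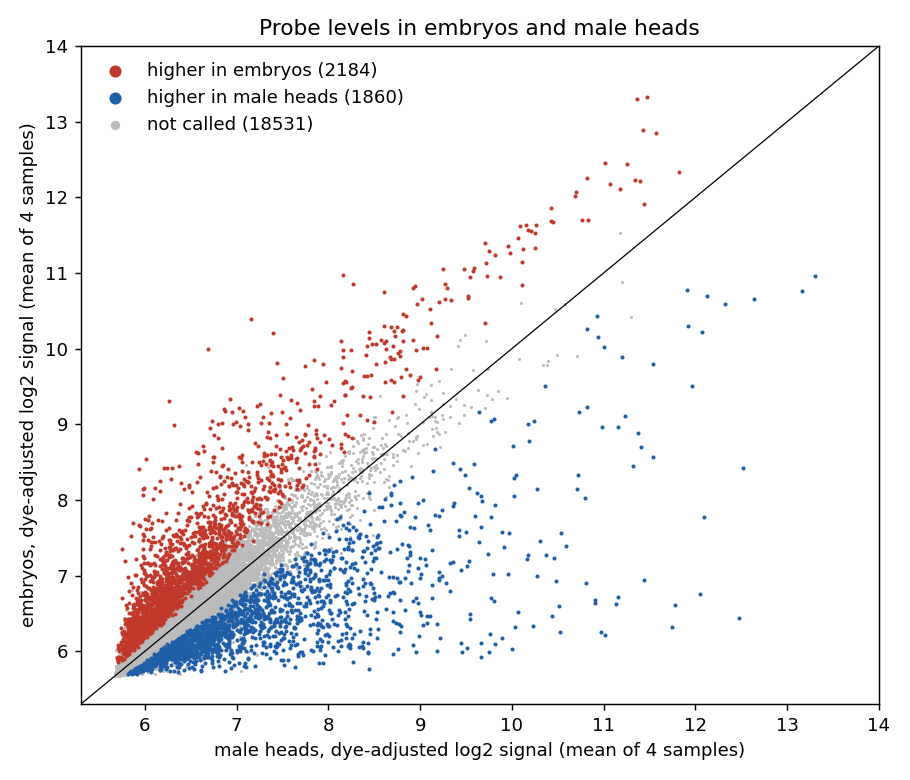
Dye-adjusted log2 signal of each of the 22575 probes, with the mean of the 4 embryo samples on the vertical and the mean of the 4 male head samples on the horizontal axis. Red points mark the 2184 probes higher in embryos, blue points the 1860 higher in male heads and grey points the others, and the line marks equal levels. Blue points reach farther from the line than red ones.

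The balance between the directions depended on how samples were put on a common scale. With each sample scaled to its 75th percentile in place of quantile normalization, 1175 probes were higher in embryos and 2475 in heads. The embryo-higher share of the calls was then 32.2%, against 54.0% with quantile normalization. That scaling moved the median difference of all probes to -0.20 log2 units, where quantile normalization holds it at 0.

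Among the 21928 probes measured in all 8 samples, the 4 embryo and the 4 head values did not overlap at 20.5%. All embryo samples lay above all heads at 2321 of these probes, and all heads lay above all embryos at 2167. The spread within the groups was alike, with a median SD of 0.12 in embryos and 0.12 in heads (n = 4 each). Spearman correlations over all probes, given as a description, were between 0.803 and 0.954 within embryos and between 0.807 and 0.929 within heads. Between an embryo and a head sample they were between 0.648 and 0.856, where samples share probes, normalization and in part a dye.

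Most calls were at levels under 7 log2 units, where most probes lie, while the share called was higher at brighter probes. Of the 13780 probes with a mean level between 6 and 7 log2 units, 10.1% were higher in embryos and 8.18% in heads. The share was 19.0% toward embryos and 18.6% toward heads between 7 and 8, and 29.3% and 22.0% between 8 and 10. Among the 82 probes at 10 or more, 49 (59.8%) were higher in embryos and 22 (26.8%) were higher in heads. At the brightest level embryo-higher probes were thus the more numerous, and 40 of the 49 differed by at least 1 unit, against 18 of the 22. Under 6 units, close to the floor of 5.64 that the offset sets, 2.09% and 2.55% were called, and 0 probes in either direction differed by 1 unit. Calls were spread over the array. Of its 4 quadrants the upper left held the highest share of embryo-higher calls (11.7%, with 6.55% head-higher) and the lower right the lowest (8.09%, with 9.69% head-higher).

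The 8 most embryo-higher probes were bright in every embryo sample. In heads 4 of them lay under the 60th percentile of all probes, and the other 4 between the 85.1st and the 97.5th. The 8 were chosen by the size of their difference among called probes measured in all 8 samples with groups that did not overlap. Probe 14901 had log2 signals of 10.22, 10.09, 10.52 and 10.71 in embryo replicates 1 to 4, against 6.53, 6.95, 7.03 and 8.12 in head replicates 1 to 4. The groups were far apart, and head replicate 4 was the highest of the heads. Its difference was 3.23 (SE 0.40, limma adjusted p = 2.29e-06), about 9.36-fold. Without embryo replicate 2 and head replicate 4 it was 3.70, and 2.12 when each array was given a term of its own, and both were called.

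Probe 11685 had 9.91, 9.54, 8.71 and 9.05 in embryos, against 6.21, 6.07, 6.08 and 6.71 in heads. In heads its mean ranked at the 54.8th percentile of all probes, close to a typical spot, while in embryos it ranked at the 99.2nd. The difference was 3.03 (SE 0.20, limma adjusted p = 2.54e-10). Probe 7041 showed the same arrangement, with 9.54, 9.56, 8.36 and 8.49 in embryos, against 5.88, 6.16, 6.15 and 7.09 in heads. Head replicate 4 was again the highest head sample, and embryo replicates 1 and 2 were about 1 unit above replicates 3 and 4. The difference was 2.67 (SE 0.28, limma adjusted p = 1.98e-07), and it was 3.54 in the Cy5 and 1.80 in the Cy3 samples alone.

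Other embryo-higher probes were bright in heads too. Probe 3725 had 11.37, 10.84, 10.85 and 10.83 in embryos, against 8.36, 8.34, 7.83 and 8.10 in heads, a difference of 2.82 (SE 0.22, limma adjusted p = 3.23e-09). Probe 20741 had 11.18, 11, 10.61 and 10.63 in embryos, against 8.11, 8.33, 8.34 and 8.30 in heads, a difference of 2.58 (SE 0.18, limma adjusted p = 6.11e-10). Heads ranked at the 97.0th percentile for probe 3725 and at the 97.5th for probe 20741. In all 4 other groups these probes averaged between 9.77 and 10.03, so heads were the lowest of the 6 groups at both. The remaining probes of the 8 were 17726, 5719 and 5416, with differences of 2.53, 2.48 and 2.41 (SE 0.22, 0.15 and 0.16). Probe 5719 was at the 18.3rd percentile in heads and probe 17726 at the 28.8th, below most spots of the array.

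The head-higher extremes were larger. Probe 20039 had log2 signals of 6.0, 7.27, 6.0 and 6.02 in embryos, against 11.64, 11.97, 11.83 and 11.55 in heads. Of the embryos, replicate 2 was the highest, and it still lay more than 4 units below every head. The difference was -5.43 (SE 0.28, limma adjusted p = 4.04e-12), about 43.1-fold lower in embryos. In scanner units above background its Cy5 signal was 12.6 and 31.4 in embryos, against 574 and 916 in heads. The Cy3 signal was 117 and 101 in embryos, against 3420 and 4140 in heads. These embryo readings ranked at the 26.9th, 29.5th and 31.9th percentile of their samples in replicates 1, 3 and 4, and at the 90.2nd in replicate 2. With an offset of 10 in place of 50 the difference was -6.64.

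Probe 9797 had 6.78, 7.14, 6.22 and 6.30 in embryos, against 11.61, 12.04, 11.32 and 12.16 in heads, a difference of -5.17 (SE 0.23, limma adjusted p = 5.29e-13). The spot before it, probe 9796, was also among the 8, yet the pair differed in pupae. Probe 9797 averaged 9.05 ± 0.41 in female, 9.55 ± 0.14 in male and 9.49 ± 0.32 in mixed-sex pupae, while probe 9796 averaged 6.30 ± 0.35, 6.07 ± 0.15 and 6.11 ± 0.18 (SD, n = 4 each). In the embryo samples probe 9796 read 6.19, 7.94, 6.20 and 6.18, against 10.70, 11.39, 10.40 and 12.04 in heads. Here embryo replicate 2 stood well above the other embryos, and head replicate 4 was the highest head. The difference of -4.51 (SE 0.35, limma adjusted p = 1.93e-09) was -4.66 without these samples.

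Probe 22433 had 6.25, 6.71, 5.95 and 5.94 in embryos, against 10.60, 11.17, 10.90 and 11.37 in heads. It had the smallest p of the 8, with a difference of -4.80 (SE 0.16, limma adjusted p = 1.43e-14). Probe 5520 had 6.20, 6.88, 5.96 and 5.95 in embryos, against 10.34, 11.14, 10.64 and 11.78 in heads, a difference of -4.73 (SE 0.23, limma adjusted p = 1.85e-12). Both were near the array's typical spot in embryos, at the 49.4th and the 52.5th percentile. Probes 18964, 19299 and 12595 completed the 8, with differences of -4.49, -4.43 and -4.33 (SE 0.22, 0.29 and 0.25). Probe 12595 was not faint in embryos, where it read 7.19, 8.85, 7.35 and 7.69, against 11.94, 12.09, 12.01 and 12.35 in heads.

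**Figure D2:**
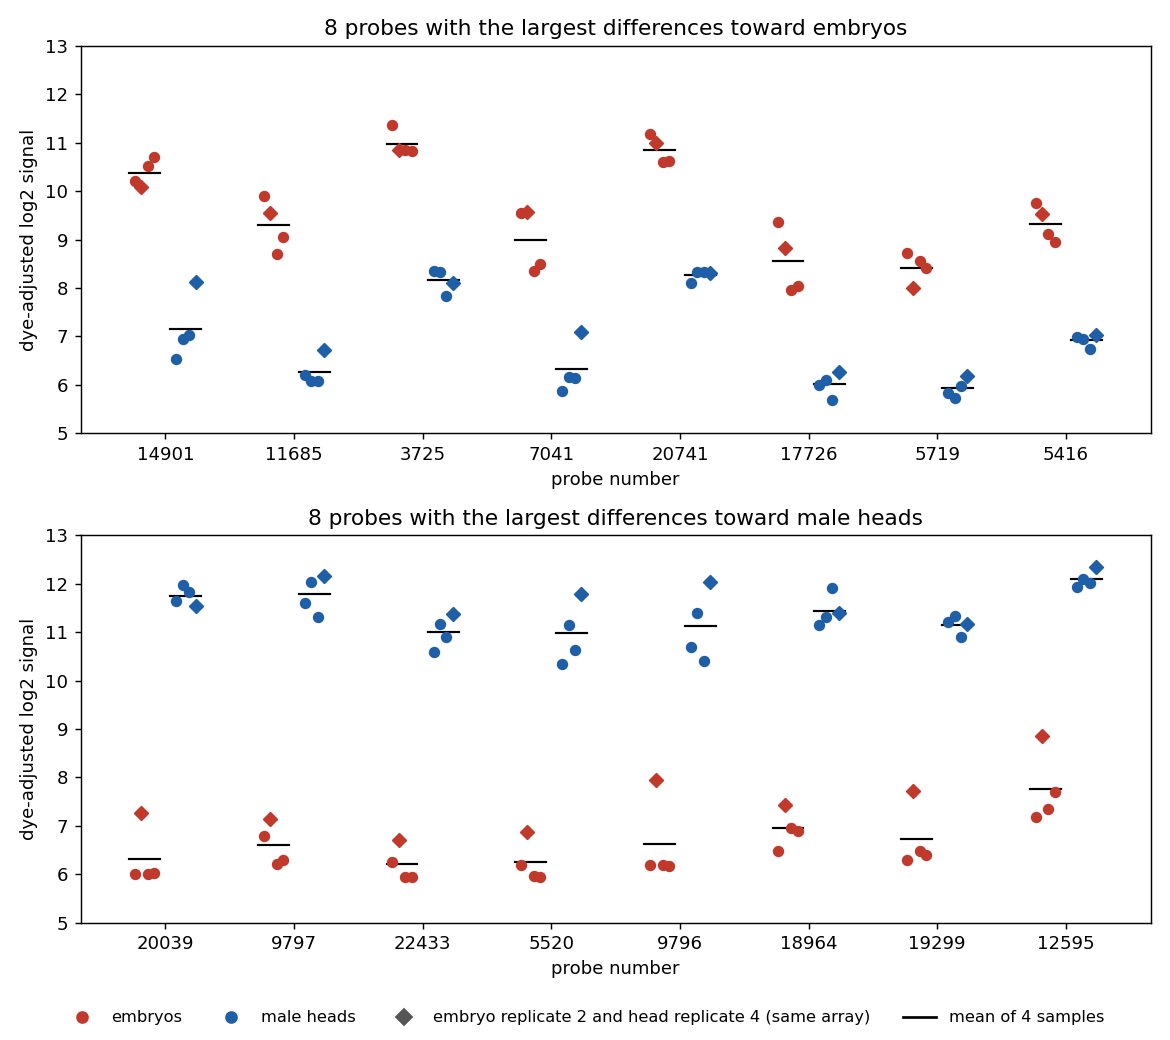
Dye-adjusted log2 signal (vertical axis) of the 8 probes with the largest differences toward embryos and the 8 toward male heads, by probe number. They were picked among called probes measured in all 8 samples with groups that did not overlap. Each point is 1 sample, embryos in red left of male heads in blue, lines are means of 4, and diamonds mark embryo replicate 2 and head replicate 4, which shared an array. Embryo replicate 2 is the highest embryo at 8 of the 8 head-higher probes, as at probe 9796 with 7.94.

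At probes higher in the other group, embryo replicate 2 and head replicate 4, which shared an array, stood above the other samples of their own group. For this comparison the probes were called without the sample in question, at a difference of at least 1 unit. At 482 probes called higher in heads, embryo replicate 2 stood at a median of 12.7% of the distance that led from the other embryos to the heads. It was above the mean of the other embryos at 82.4% of them. At the corresponding probes embryo replicates 1, 3 and 4 lay at -0.719%, -4.52% and -5.42%, where a negative value means farther from heads. At 430 embryo-higher probes, head replicate 4 lay 13.6% of the way to the embryos and above the other heads at 77.7%. Head replicates 1, 2 and 3 lay at -11.1%, 1.96% and 0.811%. At probes higher in the sample's own group, embryo replicate 2 lay between the other embryos, while head replicate 4 was the highest head. There embryo replicates 1 to 4 deviated from the other embryos by a median of 0.24, -0.07, -0.25 and -0.19 log2 units, and head replicates 1 to 4 from the other heads by -0.28, 0.09, -0.12 and 0.15. Embryo replicates 3 and 4 and head replicate 1 were thus the lowest at their own group's probes. Head replicate 4 lay above the other heads at both sets, by a median of 0.19 at the embryo-higher and 0.15 at the head-higher probes. Of the 8 samples these were the only pair with an embryo and a head on 1 array. Abdomen replicates 2 and 3 and female pupal replicate 3 also shared arrays with heads. At head-higher probe 20039 abdomen replicates 1 to 4 had 6.04, 6.99, 6.86 and 5.93. Female pupal replicates 1 to 4 had 6.03, 6.12, 7.17 and 6.10 there. At head-higher probe 9797, by contrast, female pupal replicate 3 was the lowest of its group at 8.44, against 9.18 to 9.33. The part of shared arrays in these shifts was not tested.

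**Figure D3:**
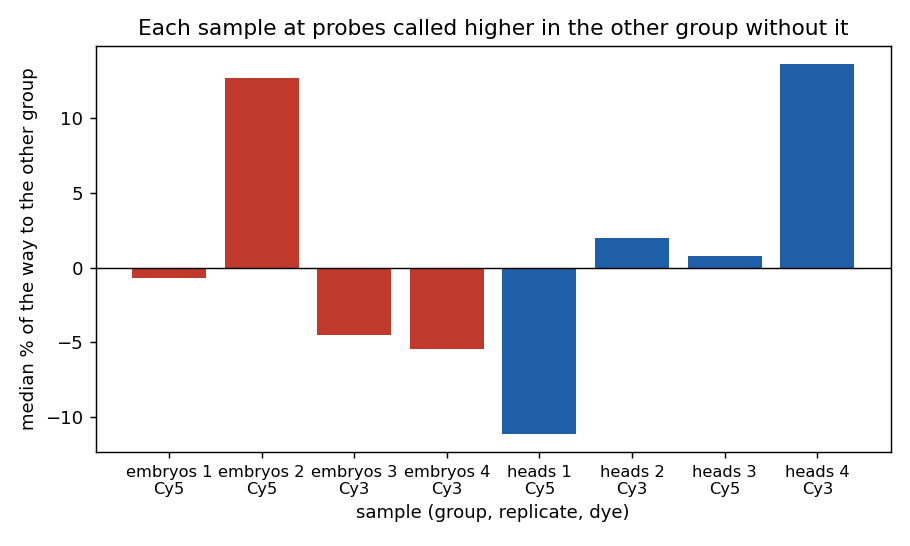
Median percentage of the way from the other 3 samples of its group (0) to the other group (100) for each of the 8 samples, embryos in red and heads in blue, at probes that the remaining samples called higher in the other group by 1 log2 unit or more. Embryo replicate 2 (12.7%) and head replicate 4 (13.6%) stand above the other 6 samples, which lie between -11.1% and 1.96%.

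The direction of the calls could also be read on that array itself. With both samples left out, 1909 probes were higher in embryos and 1584 in heads. Of the 1906 and 1576 of these that the array measured, 92.5% of the embryo-higher and 93.3% of the head-higher probes had the same sign there after the dye effect was removed. For differences of at least 1 unit it was 99.5% of 438 and 99.8% of 449. The embryo-higher probes of that size differed by a median of 1.10 units on this array, against 1.34 in the fit without it, and the head-higher probes by -1.60, against -1.59.

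Each dye on its own gave differences of the same sign at nearly all called probes. That held at 2164 of 2182 embryo-higher and 1857 of 1859 head-higher probes with values in both dyes, though these same values made the calls. The size was not equal: embryo-higher probes differed by a median of 0.41 units in Cy3 and 0.66 in Cy5, and head-higher probes by -0.63 in Cy3 and -0.49 in Cy5. The Cy3 samples alone called 1304 embryo-higher and 1746 head-higher probes, and the Cy5 samples alone 1557 and 838. In the Cy3 samples embryos were on bright and heads on dim arrays, while in Cy5 all 4 samples were on dim arrays. With dim arrays only, where both embryo samples were Cy5, 2448 probes were higher in embryos and 1412 in heads, and with array brightness as a term 2852 and 1970.

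**Figure D4:**
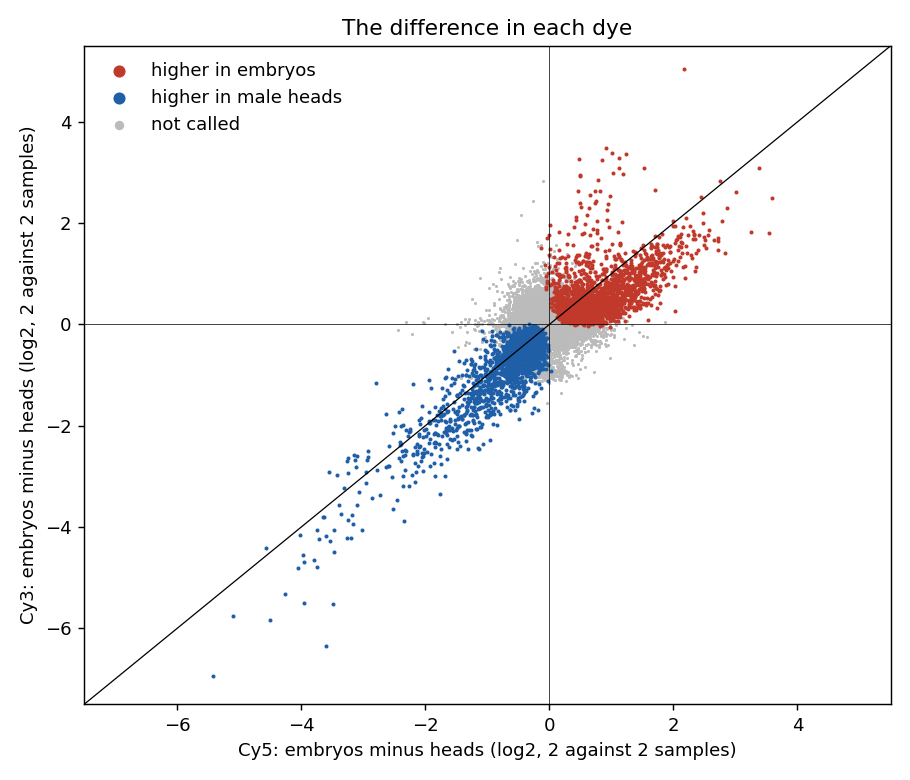
Difference between embryos and male heads in log2 units for each probe, in the 2 against 2 Cy3 samples (vertical axis) and the 2 against 2 Cy5 samples (horizontal axis). Red and blue points are the probes called higher in embryos and in male heads, grey points the others, and the diagonal marks equal differences. Nearly all called probes lie in the quadrants of matching sign (2164 of 2182 toward embryos and 1857 of 1859 toward heads), and a small group of red points has Cy3 differences above 1 with Cy5 differences near 0.48.

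At some probes the difference depended on the dye. The difference in Cy3 minus that in Cy5 passed limma's test after adjustment at 358 of 22575 probes (1.59%), of which 165 were embryo-higher and 28 head-higher calls. Without adjustment the p was under 0.05 at 3934 probes (17.4%). At 48 embryo-higher probes the Cy3 difference was larger by at least 1 unit, with medians of 2.20 in Cy3 and 0.48 in Cy5. Their median log2 signal was 6.98 and 6.95 in embryo replicates 1 and 2, and 8.45 and 8.40 in embryo replicates 3 and 4, against 6.19 to 6.52 in the heads. The Cy3 minus Cy5 difference at these probes was 1.60 in embryos, and -0.09 in heads, -0.05 in abdomens, -0.06 in female, -0.12 in male and -0.01 in mixed-sex pupae. Bright minus dim arrays differed by 0.03 in mixed-sex pupae, with 2 samples each. The probes were chosen for the embryo difference, so the embryo values are a description. The values of the other groups are given beside them, and what dye and array brightness did at embryo signal levels was not tested. Dye and array brightness cannot be told apart from the pair of embryo samples. Probe 7894 is an example, with 7.85, 8.69, 9.74 and 9.88 in embryos, against 6.64, 6.73, 6.85 and 6.71 in heads. It was called overall (difference 2.31, SE 0.32, limma adjusted p = 1.16e-05), by 3.09 units in Cy3 and 1.52 in Cy5. In the opposite direction, 32 embryo-higher probes had a Cy5 difference larger by at least 1 unit, with 8.10 and 8.02 in embryo replicates 1 and 2, and 7.19 and 7.29 in replicates 3 and 4.

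For most probes the data bounded the difference closely. The 95% interval of the difference lay within 0.5 log2 units of 0 at 15540 probes (68.8%), of which 808 were nonetheless called as small differences. Most of these were faint: among the 692 probes with a mean level over 8, the interval was that narrow at 49 (7.08%). The offset holds faint probes close together on this scale, so a narrow interval there does not bound the change in signal itself. The 4 brightest probes with so narrow an interval were 13563, 13838, 5873 and 12916. Probe 13563 had 10.39, 10.91, 10.49 and 10.59 in embryos, against 10.46, 10.31, 11.15 and 10.40 in heads, with a difference of 0.01 and an interval of -0.37 to 0.40. Probe 5873 had 9.88, 9.49, 9.70 and 9.86 in embryos, against 9.76, 9.94, 9.74 and 9.53 in heads, with a difference of -0.01 and an interval of -0.32 to 0.30. The groups overlapped fully at both. Probe 5873 was level between embryos and heads but not across the series, since it averaged 8.24 to 8.44 in the 3 pupal groups. Under scaling to the 75th percentile probe 13563 differed by 0.87 (limma adjusted p = 0.0365) and probe 13838 by 0.81 (limma adjusted p = 0.0488), toward embryos, so that their level differences rest on the quantile scale.

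The other 4 groups, which did not enter the contrast, placed the probes among stages and tissues. Some of their samples shared arrays with heads (abdomen replicates 2 and 3, female pupal replicate 3). Others shared arrays with embryos (female pupal replicate 1, male pupal replicate 2, mixed-sex pupal replicate 2). The 400 probes at least 1 unit higher in embryos had a median log2 signal of 8.49 ± 0.11 in embryos, against 6.97 ± 0.10 in heads (SD of sample medians, n = 4 each). In the remaining groups it was 7.21 ± 0.09 in abdomens, 7.70 ± 0.14 in female, 7.46 ± 0.11 in male and 7.55 ± 0.14 in mixed-sex pupae. The 473 probes at least 1 unit higher in heads had 6.54 ± 0.12 in embryos, against 8.29 ± 0.12 in heads. They had 7.32 ± 0.06 in abdomens, 6.78 ± 0.09 in female, 6.67 ± 0.07 in male and 6.70 ± 0.14 in mixed-sex pupae. Pupae were thus close to embryos at the head-higher probes and in between at the embryo-higher ones, and adult abdomens lay close to heads at the embryo-higher probes and in between at the head-higher ones. All probes together had medians of 6.20 to 6.21 in every group, which quantile normalization sets.

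**Figure D5:**
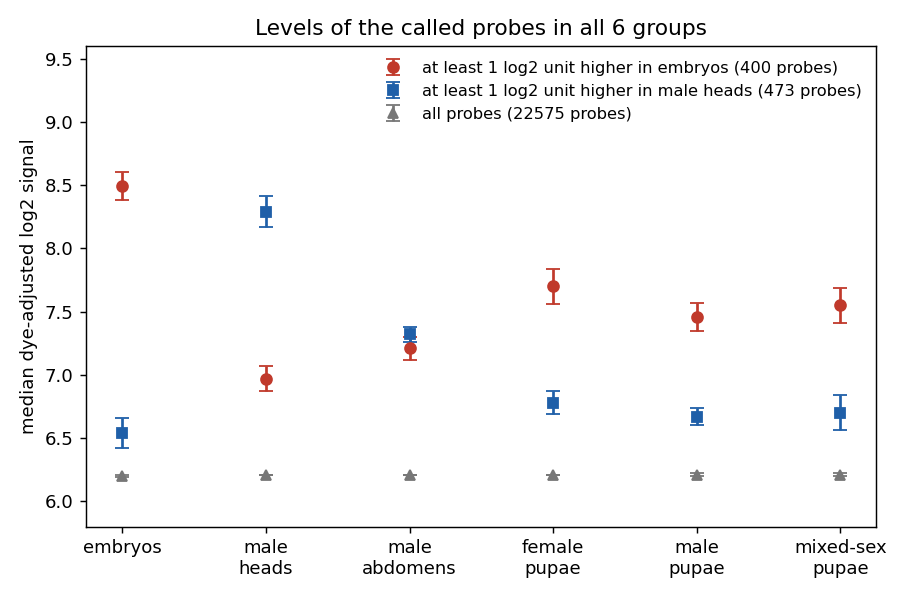
Median dye-adjusted log2 signal (vertical axis) in each of the 6 groups for 400 probes called higher in embryos by 1 log2 unit or more (red), 473 called higher in male heads by as much (blue) and all 22575 (grey). Points are means of 4 sample medians and bars are SD, and quantile normalization makes the grey points alike. Embryos and heads chose the probes, and in the other groups the blue points fall to between 6.67 and 7.32 while the red ones lie between 7.21 and 7.70.

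Probe by probe, the position of a group was taken on a line from heads (0) to embryos (1). At embryo-higher probes of at least 1 unit the median position was 0.14 for abdomens, 0.45 for female, 0.34 for male and 0.37 for mixed-sex pupae. Abdomens were nearer to embryos than to heads at 43 of the 400 (10.8%), and pupae at 122 to 157. At the head-higher probes the median position was 0.57 for abdomens and 0.93, 1.00 and 0.99 for female, male and mixed-sex pupae. Abdomens were nearer to heads at 207 of the 473, and pupae at 55 to 70. All 4 groups were nearer to heads at 207 of the 400 embryo-higher probes, and all 4 were nearer to embryos at 235 of the 473 head-higher probes. At 158 head-higher probes abdomens were nearer to heads and all 3 pupal groups nearer to embryos, and at 87 embryo-higher probes the same arrangement was found.

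Embryos were the highest of the 6 group means at 358 of the 400 embryo-higher probes, and heads were the lowest at 265. At the 473 head-higher probes heads were the highest at 402, and embryos were the lowest at 192. The probes were chosen by the difference between embryos and heads, which favours these groups as extremes. The counts are thus a description, with no count over all probes beside them.

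Named probes show these arrangements. Probe 16573, a head-higher probe at which abdomens lay at the midpoint (0.50), had 7.71, 9.02, 8.43 and 8.52 in embryos, against 12.39, 12.50, 12.39 and 12.79 in heads. It averaged 10.48 ± 0.36 in abdomens and 10.59 to 10.92 in the pupal groups, so embryos were the lowest of all. Probe 19660 had 5.96, 6.33, 6.03 and 6.04 in embryos, against 9.67, 9.90, 9.91 and 9.77 in heads (difference -3.72, SE 0.13, limma adjusted p = 3.8e-14). Abdomens averaged 8.0 ± 0.28 there and pupae 6.02 to 6.08, so both adult tissues stood above embryos and pupae. Probe 3008, by contrast, had 6.16, 6.85, 6.02 and 5.99 in embryos, against 10, 10.70, 10.49 and 10.89 in heads. Abdomens at 6.41 ± 0.29 and pupae at 6.04 to 6.29 lay with the embryos. Probe 2263 had the same form, with a difference of -4.27 (SE 0.29, limma adjusted p = 3.43e-10) and abdomens at 6.75 ± 0.60. Abdomen replicates 2 and 3, which shared arrays with heads, had 7.11 and 7.42 there, against 6.27 and 6.23 in replicates 1 and 4.

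On the embryo side, probe 2701 had 10.28, 10.01, 10 and 10.13 in embryos, against 8.47, 8.19, 7.82 and 8.06 in heads, a difference of 1.97 (SE 0.17, limma adjusted p = 1.06e-08). Abdomens were in the middle at 9.18 ± 0.27, and pupae were at 8.72 to 8.84. Probe 9179 had 8.03, 7.88, 8.83 and 8.94 in embryos, against 6.25, 6.19, 6.23 and 6.28 in heads, with abdomens at 7.38 ± 0.20. Embryo replicates 3 and 4 were about 1 unit above replicates 1 and 2 at this probe, while the head samples were close together. Probe 13470 had 9.48, 9.28, 8.96 and 9.09 in embryos, against 6.66, 6.59, 7.16 and 7.05 in heads. Pupae averaged 8.55 to 8.82 there and abdomens 7.58 ± 0.13, so the immature stages stood above both adult tissues.

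Whether the calls recur between other samples was read in 2 comparisons between groups other than embryos and heads. Both came from the fit to all 24 samples. Embryo and head samples thus shared in each probe's spread and dye effect, so the lists are not independent. Male abdomens were higher than male pupae at 10.6% and lower at 4.81% of all probes. Of the 1860 head-higher probes, 609 (32.7%) were higher in abdomens than in male pupae, which is 25.4% of that list, and 101 (5.43%) were lower. Of the 2184 embryo-higher probes, 285 (13%) were lower in abdomens than in male pupae, which is 26.3% of that list, and 142 (6.50%) were higher. Shares well above the background were those of head-higher probes among probes higher in abdomens and of embryo-higher probes among probes higher in male pupae. The background was all probes and was not matched for signal level, with which the share of embryo and head calls rose. Under scaling to the 75th percentile 431 of 2475 head-higher probes (17.4%) were higher in abdomens, against 8.03% of all probes, and 128 of 1175 embryo-higher probes (10.9%) were lower, against 2.98%. Of the abdomen and male pupal samples, 3 shared an array with an embryo or head sample. Without these, with 2 abdomen and 3 male pupal samples, the background was 8.27% higher and 2.24% lower, and the shares were 24.2% of head-higher probes among the higher and 5.17% of embryo-higher probes among the lower.

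Between female and male pupae, 0.642% of all probes were higher and 4.42% were lower in females. Of the embryo-higher probes 23 (1.05%) were higher in female pupae and 27 (1.24%) were lower. Of the head-higher probes 31 (1.67%) were higher and 33 (1.77%) were lower. In both lists the share higher in female pupae lay above that of all probes and the share lower in female pupae lay below it, with counts of 23 to 33. Under scaling to the 75th percentile this did not hold for the head-higher probes, of which 3 of 2475 (0.121%) were higher in female pupae, against 0.155% of all probes.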

How the data were processed

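RNA of 24 samples in 6 groups of 4 was measured, with groups and dyes from the sample labels. Per the file headers, the authors deposited 1 table per sample with the mean signal intensity, mean and median local background intensity and a quality mark (another score, of meaning not given) for each of 22575 spots, with no correction or scaling applied. A further deposited table holds natural log values, found here to be those of the mean signal after subtraction of the mean background (within 1e-07), and was used as an alternative. Scanner software is not given in the sources used here.

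In R 4.3.3 with limma 3.58.1, normexp with an offset of 50 corrected the mean signal for the median background, log2 values were quantile normalized, and spots with a mark above 0 (647 probes in the 8 samples) were left out. A model with group means and a dye term was fitted to all 24 samples (17 residual degrees of freedom) with variances moderated along an intensity trend. Log2 differences are embryos minus heads. Levels are dye-adjusted. Arrays were inferred from identical patterns of marked spots, since the labels do not give them. The number of arrays limits the precision. The main fit treated the 2 samples of an array as independent. With array as a random block, at a within-array correlation of 0.49, 2781 probes were embryo-higher and 2232 head-higher. With array as a fixed block the counts were 2184 and 1640. Alternatives changed the scaling, background, offset, filters, dye, array and replicate terms, thresholds and samples. The code was tested on simulated data.

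Named probes were, by rule, up to 8 with the largest called difference per direction that were measured in all 8 samples and did not overlap, the 4 brightest with a 95% interval within 0.5, and up to 2 more in each of 4 classes by whether abdomens lay nearer to embryos or heads. Members, lists and alternatives were chosen with earlier results of these data known. The analyses of the shared array, of the dye difference and of the comparison without shared arrays were added after the data were seen. Gene and marker lists could not be applied, since no probe was tied to a gene.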

Additional observations from a re-analysis of the deposited data

Results flagged for a closer look

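In 56 tests of a named probe's 4 embryo or 4 head values for a sample far from the other 3, 6 did so, where about 5% of such tests would by chance. Of the 6, 4 were embryo replicate 2 at head-higher probes. Its log2 signal at probe 20039 was 7.27, and the other embryos lay at 6.0 to 6.02. At probe 9796 it had 7.94, against 6.18 to 6.20. At probe 19299 it had 7.71, against 6.29 to 6.48, and at probe 2263 it had 7.55, against 6.23 to 6.42. This sample shared its array with head replicate 4, and all 4 probes were called without both samples, with differences of -5.86, -4.66, -4.80 and -4.66. The remaining cases were at embryo-higher probes. Embryo replicate 1 had 11.37 at probe 3725, against 10.83 to 10.85 in the other embryos, and head replicate 1 had 8.11 at probe 20741, against 8.30 to 8.34 in the other heads.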

How the results depend on the processing

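Of 30 alternative settings, 26 kept the count of embryo-higher probes and 27 that of head-higher probes within 1.5 times. Leaving out 1 sample at a time gave 1733 to 2155 embryo-higher and 1575 to 1842 head-higher probes. Scaling to the 75th percentile gave 1175 embryo-higher probes, the Cy3 samples alone 1304, and the Cy5 samples alone 838 head-higher probes. A minimum difference of 1 log2 unit left 400 and 473, which follows from its construction. With the replicate block over the 8 samples 842 and 899 probes were called, but the numbers do not pair the samples: deviations of same-numbered embryo and head samples correlated at -0.17, 0.03, -0.02 and -0.26, and 0 of 4 embryo samples correlated best with the head of its own number. The cause of the changes with scaling and dye was not tested. All 24 named probes with a called difference kept their direction and call in all 30 settings. They had been chosen for large differences in these same samples, so this follows largely from the choice. The steady probes 13563 and 13838 were called only under scaling to the 75th percentile, at 0.87 and 0.81. Under that scaling the level of all embryo-higher probes over the all-probe median was 0.66 in abdomens and 0.85, 0.92 and 0.74 in female, male and mixed-sex pupae, where quantile normalization gave 0.22, 0.36, 0.28 and 0.29. That of the head-higher probes was -0.06, -0.10, -0.19 and -0.14, where quantile normalization gave 0.28, 0.13, 0.06 and 0.08, so it turned from above to below the median. Abdomens were below the 3 pupal groups at embryo-higher and above them at head-higher probes under both, but the order among pupae at embryo-higher probes changed. Faint signal limits the Cy5 samples, where as few as 74.0% of probes were detected.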
